A study of Saccharomyces cerevisiae with 6 samples.

Results

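This account concerns reads under 9 named features of budding yeast, Saccharomyces cerevisiae, each of which lies on the strand opposite 1 gene of nucleolar ribosome assembly. The features are YGR160W opposite NSR1, YLR198C opposite NOP56, YPR136C opposite RRP9, YDL152W opposite SAS10, YKL083W opposite RRP14, YPL044C opposite NOP4, YNL174W opposite NOP13, YAL059C-A opposite ECM1 and YOL079W opposite REX4. They were chosen by name, with earlier results of these data known, so counts of members set beside a background share are a description. They are 9 of 7127 features in the files, and 9 of 369 features that could be paired with 1 protein-coding gene on the other strand. Gene names below stand for the reads under these opposite features unless the gene's own identifier is mentioned.

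RNA was sequenced from 6 libraries of strain BY4741, a haploid laboratory strain in which HIS3, LEU2, MET17 and URA3 are deleted, in every group alike. The cells came from exponential growth in synthetic complete medium. Per the labels, 2 libraries came from cells deprived of nitrogen for 1 h, 2 from cells deprived of potassium for 1 h, and 2 from control cells that went on growing untreated for the same time. The series concerns autophagy under potassium starvation, and the design sets each starvation against the control. The labels give a batch number to each library but name no separate cultures. A p-value here therefore reflects how far libraries of a group differ, which may be technical. The fit estimates that spread over all groups together and shares information about it across features.

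Ribosome subunits are put together in the nucleolus, where RNA polymerase I makes a long precursor RNA that assembly factors fold, modify and cut while ribosomal proteins bind to it. Small nucleolar RNAs, each held in a particle of proteins, guide much of this work, and separate sets of factors then complete the small and the large subunit. In yeast the genes of these factors form a regulon that follows nutrient signals through the TOR and protein kinase A pathways. Many of their promoters carry short elements known as PAC (polymerase A and C) and RRPE (ribosomal RNA processing element).

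The members cover several steps of this pathway. NOP56 is a core protein of the box C/D particles that methylate ribosomal RNA, and RRP9 is a protein of the U3 particle, which is needed to cut the precursor for the small subunit. SAS10 belongs to the large complex around U3 known as the small subunit processome. NSR1 is the yeast counterpart of nucleolin, an RNA-binding protein needed to process the precursor. RRP14 takes part in maturation of both subunits, NOP4 is an RNA-binding protein needed for the large subunit, and NOP13 is a related nucleolar RNA-binding protein found in precursor particles. ECM1 takes part in assembly and export of the large subunit, and REX4 is a putative RNA exonuclease.

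The features were placed on genome build R64 by finding reading frames of matching length on the named strand, since none of the 9 is in the RefSeq annotation used here. NSR1 has a single coding exon at chrVII:806412-807656 on the minus strand, and YGR160W lies at chrVII:807073-807684 on the plus strand, with 584 of its 612 bases opposite NSR1. A stretch of 40 bases from this overlap is shown on both strands, because it is the relation on which every value below rests. Reading the NSR1 line backwards and pairing each base gives the YGR160W line.
YGR160W (chrVII:807344-807383, plus strand): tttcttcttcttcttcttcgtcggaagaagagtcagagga
NSR1 (chrVII:807344-807383, minus strand): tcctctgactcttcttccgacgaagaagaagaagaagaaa

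The other placements were chrXII:547286-547645 on the minus strand for YLR198C, with 90.6% of its length opposite NOP56, and chrXVI:802325-802837 on the minus strand for YPR136C, with 93.4% opposite RRP9. YDL152W at chrIV:182822-183187, plus strand, had 53.8% of its length opposite SAS10, the smallest part of the 9, and YKL083W at chrXI:280921-281535, plus strand, had 83.1% opposite RRP14. YPL044C at chrXVI:469926-470474, minus strand, had 97.6% opposite NOP4, and YNL174W at chrXIV:308074-308646, plus strand, had 94.1% opposite NOP13. YAL059C-A at chrI:36496-36918, minus strand, had 96.9% opposite ECM1, and YOL079W at chrXV:181057-181455, plus strand, had 93.0% opposite REX4. Each of the 9 genes has 1 coding exon, and no annotated gene shares the strand of any of the 9 features where they lie. Of the 9 features, 7 cover the start of the gene and reach from 13 bases (NOP4 and ECM1) to 169 bases (SAS10) beyond the start codon. The features opposite NOP56 and RRP14 cover the end of the gene and run 34 and 104 bases past it.

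**Figure D1:**
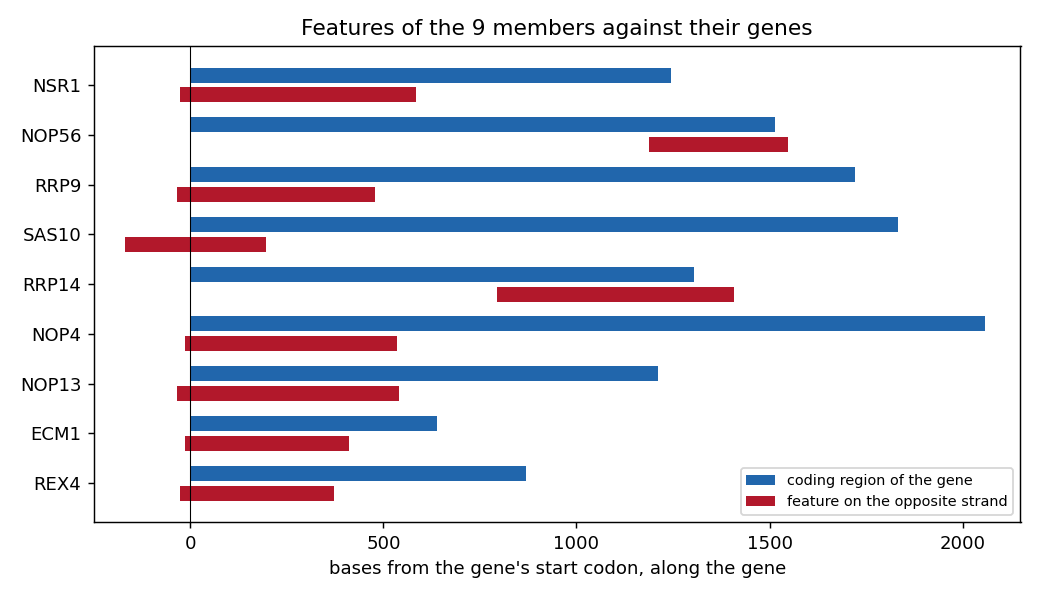
Position of each feature (red) against the coding region of its gene (blue), in bases from the gene's start codon along the gene. The features of NOP56 and RRP14 sit at the end of the coding region and the other 7 at its start, and that of SAS10 reaches 169 bases before the start codon.

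Most reads at these loci were counted under the opposite feature and few under the gene's own identifier. Over the 6 libraries the features held from 414 reads (SAS10) to 9087 reads (NOP56), whereas the own identifiers held from 7 (ECM1) to 592 (NOP56). Per base of length, the reads under the feature exceeded those under the own identifier 64.6-fold for NOP56, the smallest excess, and 488-fold for NOP13, the largest. The library kit keeps the strand of the RNA, but the quantifier's strand setting is not given in the sources used here, and whether the reads are those of the genes' messages was not tested. Under the own identifier of NOP56 the reads numbered 9 and 13 in the nitrogen libraries, 54 and 74 in the potassium libraries, and 262 and 180 in the control libraries. These reads on the other strand were lower too, with a log2 fold change of -5.77 for nitrogen over control and -1.82 for potassium over control (edgeR quasi-likelihood test with Benjamini-Hochberg adjustment over all tested features, adjusted p = 3.4e-05 and 0.0148). RRP9's own identifier held 18 and 15 reads in the nitrogen libraries, 0 and 1 in the potassium libraries, and 1 and 2 in the control libraries. It was the only own identifier of the 5 tested with a positive fold change in nitrogen over control, at log2 1.91 (edgeR, SE 0.79, adjusted p = 0.0752), and that change did not pass the threshold of 0.05. Reads under it were called higher in nitrogen over potassium (log2 3.47, edgeR adjusted p = 0.0204).

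In each library 357835 to 425923 reads were counted under the features. The number of reads sequenced is not given here, and shares of all reads are shares of these counted reads. Features opposite the ribosomal RNA genes took 19.4% to 44.7% of the reads, the most in potassium library 2, where potassium library 1 had 26.4%. The 369 paired features held 26.8% and 24.6% of reads in the nitrogen libraries, 50.3% and 41.5% in the potassium libraries, and 59.8% and 55.7% in the control libraries. The treatments were checked on genes outside the list. The feature opposite DAL80, a regulator of nitrogen use, held 4826 and 4646 reads in the nitrogen libraries, 4 and 7 in the potassium libraries, and 4 and 2 in the control libraries. That opposite PRM6, a potassium transporter, held 0 and 0 reads in the nitrogen libraries, 144 and 33 in the potassium libraries, and 1 and 0 in the control libraries. Markers of the strain were read under own identifiers, where intact genes such as ECM1 also held almost no reads, so they do not check the strain. There LEU2, MET17 and URA3 held 0 reads in each library, HIS3 up to 7, the a-specific mating genes up to 4 and the alpha-specific STE3 up to 235.

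Promoter sequence was not used to choose the members, and it is shown because all 9 carry the same element. A window of 250 bases before each start codon and the 50 bases from its first base on was searched on both strands for PAC, spelled GATGAG, and for RRPE, spelled AAAAATTTT. PAC was found in 9 of 9 members, against 1222 of 6001 protein-coding genes of R64 (20.4%). RRPE was found in 4 of 9 members, NOP56, SAS10, RRP14 and ECM1, against 419 of 6001 genes (6.98%), and these 4 also make up the members with both, against 215 of 6001 genes (3.58%). With only the 250 bases before the start, the members' counts were again 9 and 4, and the shares over all genes were 17.0% and 6.73%. Of the 204 other genes on a list of 213 ribosome assembly genes, 164 had PAC (80.4%) and 109 had RRPE (53.4%). A match is a description of the letters, not evidence that a factor binds there.

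The stretches around the matches follow, 5′ to 3′ along the strand of the gene in R64 as RefSeq gives it, with the matched letters in capitals. CTCATC is GATGAG read on the other strand, and AAAATTTTT is AAAAATTTT read on the other strand.
NOP56 (chrXII:545958-546006, plus strand): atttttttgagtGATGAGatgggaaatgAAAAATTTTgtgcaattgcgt
RRP9 (chrXVI:802227-802256, plus strand): tgacattttataGATGAGctttgattaaac
SAS10, distal (chrIV:183138-183170, minus strand): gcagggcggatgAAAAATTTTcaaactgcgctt
SAS10, proximal (chrIV:183076-183120, minus strand): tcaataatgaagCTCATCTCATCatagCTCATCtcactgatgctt
NSR1 (chrVII:807826-807855, minus strand): ttgcaagggcagCTCATCgcaagaacgaaa
RRP14, distal (chrXI:282447-282505, minus strand): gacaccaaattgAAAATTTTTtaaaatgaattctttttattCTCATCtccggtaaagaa
RRP14, proximal (chrXI:282407-282436, minus strand): tacaataaaagaGATGAGatgaccaagaga
NOP4 (chrXVI:469807-469841, plus strand): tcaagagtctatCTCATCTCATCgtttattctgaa
NOP13 (chrXIV:308694-308723, minus strand): agaaaaaattgcGATGAGcatagatgataa
ECM1 (chrI:36451-36492, plus strand): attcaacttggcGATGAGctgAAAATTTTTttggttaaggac
REX4 (chrXV:181499-181528, minus strand): agttaaactaacCTCATCgcaaccacaatc

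The PAC matches nearest to the start codon began 46 bases before it in ECM1, 75 in SAS10, 89 in REX4, 99 in NOP13, 115 in NOP4, 120 in RRP9, 127 in NOP56 and 187 in NSR1. SAS10 had 3 matches and NOP4 had 2, and in both genes a pair of matches shares 1 base. RRP14 had 3, of which those at 135 and 95 bases before the start are printed above and the third began 1 base before the start codon and runs into it. In ECM1 and NOP56 the RRPE match lay closer to the start codon than the PAC match, at 37 and 111 bases, and in SAS10 and RRP14 it lay farther away, at 140 and 164 bases. The distances and strands of the matches thus varied among the members.

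**Figure D2:**
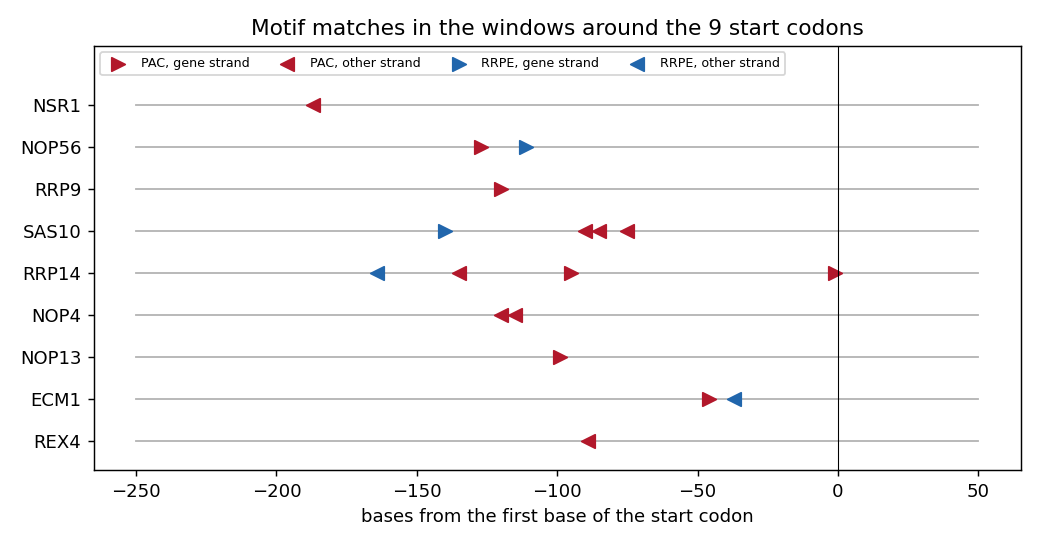
PAC (red) and RRPE (blue) matches in the window from 250 bases before to 50 bases after each start codon, plotted at the first base of the match along the gene, with arrows to the right for the strand of the gene and to the left for the other strand. All 9 members have a PAC match and 4 have an RRPE match, and every match begins before the start codon.

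Reads of the 9 members together made up 0.286% and 0.200% of all reads in the nitrogen libraries (95% Wilson intervals 0.269 to 0.304 and 0.186 to 0.215), 0.841% and 0.861% in the potassium libraries (0.812 to 0.871 and 0.833 to 0.890), and 2.72% and 2.66% in the control libraries (2.68 to 2.77 and 2.61 to 2.71). These intervals cover counting error only. The groups stood in the order nitrogen, potassium, control from low to high with no overlap. This share uses no TMM factor, but it is a scaling by library size and depends on what else was counted in each library. As a share of the reads of the 369 paired features alone, the members held 1.07% and 0.813% in the nitrogen libraries, 1.67% and 2.08% in the potassium libraries, and 4.55% and 4.78% in the control libraries. In bulk RNA, fewer cells with the RNA and less RNA per cell cannot be told apart.

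Levels below are in CPM, read counts scaled by library size and by TMM, which sets 1 factor per library from the bulk of the features. The factors ranged from 0.569 to 2.18 and were highest in the nitrogen libraries, at 2.18 and 2.01. Features with 10 or more reads numbered 2372 and 2449 in the nitrogen libraries, 1559 and 1133 in the potassium libraries, and 1346 and 1199 in the control libraries. A TMM scaling computed from the paired features moved the median over all features up by 1.29 on the log2 scale for nitrogen over control. The same shift was 0.20 for potassium over control and 1.10 for nitrogen over potassium. Fold changes with nitrogen on one side therefore depend on the scaling by more than 1 on the log2 scale, so nitrogen over control is given for each member with both. In potassium over control the paired scaling changed no call. All 9 members passed the filter on low counts.

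Nitrogen starvation was set against the untreated control to see what happens to these genes when the nitrogen source is withdrawn. All 9 members fell, with log2 fold changes from -6.24 to -3.48 (edgeR, adjusted p from 8.8e-06 to 2.9e-04), with a median of -5.05 against 0.28 over all 2325 features tested and -1.18 over the 342 paired features tested. Over all features 20.4% were called lower, and over the paired features 60.5%. With the scaling over paired features the 9 log2 fold changes ran from -4.94 to -2.18 and were called, with a median of -3.76 against 0.12 over the paired features, of which 25.7% were called lower. Scaled by library size alone, the 9 were called with smaller changes still, from -4.49 (NOP13) to -1.74 (RRP9). Every member's nitrogen libraries lay below its control libraries in CPM, which held for 33.3% of all features tested.

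Potassium starvation was set against the same control. Of the 9 members 8 were called lower, with log2 fold changes from -2.64 to -1.16 (edgeR, adjusted p from 0.0013 to 0.0413), while 4.6% of all features and 14.9% of paired features were called lower. RRP9 was also lower by point estimate, at log2 -1.29 (SE 0.39), but missed the threshold (edgeR adjusted p = 0.0740). The median over the 9 was -2.16, against 0.01 over all features and -0.19 over paired features. With the paired scaling the same 8 were called, the median was -2.01, and 14.3% of paired features were called lower. Each member lay below the control libraries in both potassium libraries, which held for 27.6% of all features tested. Without potassium library 1, 5 of 9 were called, NSR1, RRP14 and NOP4 losing their calls. Limma on log2(TPM + 1), which differs in unit, scaling and test at once, called 0 of 9, with log2 fold changes from -2.34 (ECM1) to -0.89 (RRP14) (adjusted p from 0.054 to 0.31). All 9 members had a higher CPM in potassium library 2 than in library 1, while as a share of all reads the sum of the 9 was nearly equal in both.

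**Figure D3:**
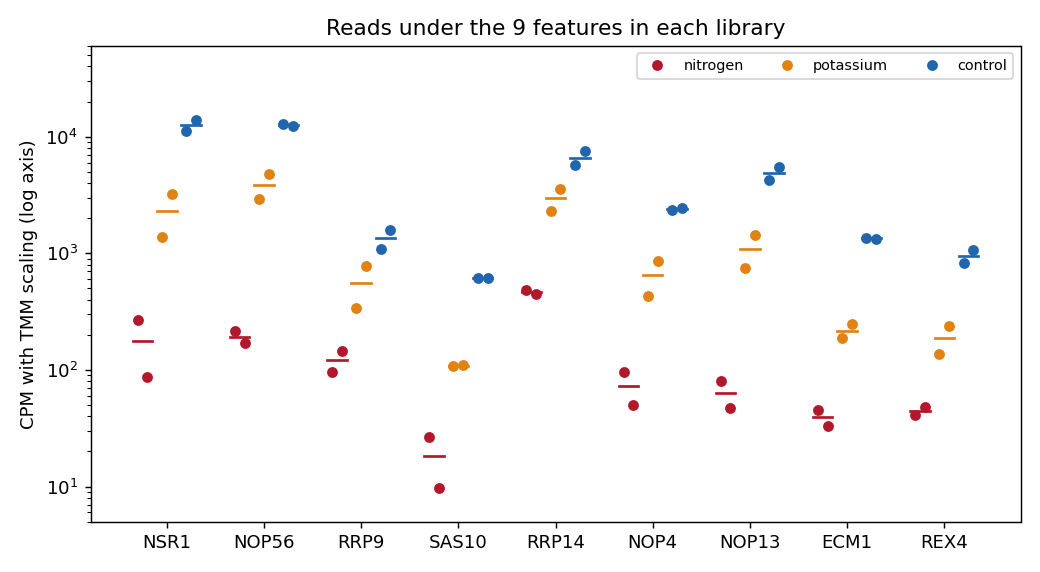
CPM (log axis) of each member in the 2 nitrogen libraries (red), the 2 potassium libraries (orange) and the 2 control libraries (blue), with a bar at the mean of each group. In CPM with TMM, for each member the nitrogen libraries are lowest, the potassium libraries lie between and the control libraries are highest, with no overlap between groups.

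Among the proteins of the small nucleolar particles, NOP56 had 216 and 171 CPM in the nitrogen libraries, 2901 and 4816 in the potassium libraries, and 12913 and 12448 in the control libraries. The 3 groups did not overlap, and the nitrogen libraries were far below both others. NOP56 fell 65.4-fold in nitrogen over control, or 26.6-fold with the paired scaling (edgeR with TMM, log2 -6.03, SE 0.39, adjusted p = 2.2e-05), and 3.29-fold in potassium over control (log2 -1.72, SE 0.32, adjusted p = 0.0137). RRP9 had 96.9 and 144 CPM in the nitrogen libraries, 340 and 773 in the potassium libraries, and 1097 and 1600 in the control libraries. The groups did not overlap, but its potassium libraries lay far apart, and the higher one came nearer, as a ratio, to the lower control library than in any other member. RRP9 fell 11.2-fold in nitrogen over control, or 4.53-fold with the paired scaling (log2 -3.48 with TMM, SE 0.42, adjusted p = 2.9e-04). With the batch numbers as a replicate block its potassium change was log2 -1.36 (SE 0.23) and was called (adjusted p = 0.0102), the 1 member whose call that block changed. RRP9 was also called without control library 1 and by DESeq2 (adjusted p = 0.0317 and 0.0471), and without potassium library 2, at log2 -1.99 (adjusted p = 0.0097).

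For factors of the small subunit and of the precursor as a whole, SAS10 had the fewest reads of the 9, with 20 and 7 in the nitrogen libraries, 38 and 25 in the potassium libraries, and 178 and 146 in the control libraries. In CPM these were 26.5 and 9.71 in the nitrogen libraries, 108 and 110 in the potassium libraries, and 620 and 610 in the control libraries. The groups did not overlap in CPM. In TPM the starvations did, at 53.0 and 16.2 TPM for nitrogen against 84.3 and 42.0 TPM for potassium. The nitrogen value of library 2 rests on only 7 reads. SAS10 fell 33.2-fold in nitrogen, or 13.6-fold with the paired scaling (edgeR with TMM, log2 -5.05, SE 0.40, adjusted p = 3.9e-05), and 5.63-fold in potassium (log2 -2.49, SE 0.35, adjusted p = 0.0053), both over control. Its nitrogen change was log2 -5.94 without nitrogen library 1 and -4.46 without nitrogen library 2. NSR1 had 269 and 87.4 CPM in the nitrogen libraries, 1380 and 3226 in the potassium libraries, and 11259 and 14006 in the control libraries. NSR1 thus had the widest spread of the 9 within both starved groups, as a ratio of the 2 libraries, and the largest standard errors of the 9 in all 3 comparisons. It fell 70.6-fold in nitrogen, or 28.6-fold with the paired scaling (log2 -6.14 with TMM, SE 0.65, adjusted p = 1.4e-04), and 5.50-fold in potassium (log2 -2.46, SE 0.54, adjusted p = 0.0272). The size of both rests on single libraries: the nitrogen change was log2 -7.17 without nitrogen library 1 and -5.49 without nitrogen library 2, and the potassium change was -3.20 without potassium library 2 and -1.91, with its call lost, without potassium library 1.

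RRP14, of both subunits, had the most reads of the 9 in each nitrogen library, 365 and 323. Its level was 484 and 448 CPM in the nitrogen libraries, 2323 and 3588 in the potassium libraries, and 5720 and 7465 in the control libraries. The 3 groups did not overlap, and the nitrogen libraries were nearly equal. RRP14 fell 14.1-fold in nitrogen, or 5.73-fold with the paired scaling (edgeR with TMM, log2 -3.82, SE 0.32, adjusted p = 5.1e-05). In potassium it was 2.23-fold lower (log2 -1.16, SE 0.29, adjusted p = 0.0413), and that call was lost in 8 of 16 alternative analyses (adjusted p from 0.0016 to 0.31 over all of them). These were the fits without either control library, either nitrogen library or potassium library 1, the fit of the 4 compared libraries alone, library size alone, and TPM.

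Among the factors of the large subunit, NOP4 had 96.9 and 49.9 CPM in the nitrogen libraries, 433 and 866 in the potassium libraries, and 2369 and 2448 in the control libraries. Its control libraries were nearly equal, while its starved libraries were spread within each group without overlap between groups. NOP4 lay nearest to the median profile of the 9, with a 32.6-fold fall in nitrogen, or 13.3-fold with the paired scaling (edgeR with TMM, log2 -5.03, SE 0.43, adjusted p = 5.4e-05), and a 3.74-fold fall in potassium (log2 -1.90, SE 0.37, adjusted p = 0.0164). NOP13 had 80.9 and 47.1 CPM in the nitrogen libraries, 754 and 1440 in the potassium libraries, and 4246 and 5518 in the control libraries. The groups again did not overlap. NOP13 had the largest nitrogen change of the 9 by point estimate, 75.7-fold lower, or 30.7-fold with the paired scaling (log2 -6.24 with TMM, SE 0.45, adjusted p = 3.1e-05), but its 95% interval of -7.25 to -5.23 overlaps those of NSR1, NOP56, SAS10, NOP4 and ECM1. In potassium NOP13 fell 4.47-fold (log2 -2.16, SE 0.36, adjusted p = 0.0096). ECM1 had 45.1 and 33.3 CPM in the nitrogen libraries, 187 and 247 in the potassium libraries, and 1359 and 1324 in the control libraries. Its libraries were close to each other within each group, and it had the smallest standard errors of the 9 in nitrogen and potassium over control. ECM1 fell 33.9-fold in nitrogen, or 13.8-fold with the paired scaling (log2 -5.08 with TMM, SE 0.27, adjusted p = 8.8e-06), and 6.22-fold in potassium (log2 -2.64, SE 0.24, adjusted p = 0.0013).

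REX4, the putative exonuclease, had 41.1 and 48.5 CPM in the nitrogen libraries, 136 and 239 in the potassium libraries, and 829 and 1069 in the control libraries. The 3 groups did not overlap. REX4 fell 21.0-fold in nitrogen, or 8.55-fold with the paired scaling (edgeR with TMM, log2 -4.39, SE 0.33, adjusted p = 3.4e-05), and 5.15-fold in potassium (log2 -2.36, SE 0.30, adjusted p = 0.0043).

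The starvations were then compared directly, nitrogen over potassium, since an effect called in each does not show that the sizes differ. All 9 members were lower in nitrogen, with log2 fold changes from -4.31 (NOP56) to -2.03 (REX4) (edgeR, adjusted p from 1.3e-04 to 0.0033), with a median of -2.66, while 19.4% of all features and 59.1% of paired features were called lower. With the paired scaling the 9 were also called, from -3.17 (NOP56) to -0.91 (REX4), with a median of -1.53, and 24.6% of paired features were called lower. Each member's nitrogen libraries lay below its potassium libraries in CPM, which held for 33.1% of all features tested. With library size alone REX4, RRP9 and SAS10 were not called (log2 -0.54, -0.64 and -1.14, adjusted p from 0.11 to 0.21). With limma on log2(TPM + 1) 4 members were called, NSR1, NOP56, NOP4 and NOP13. NOP56, NOP13, NSR1 and NOP4 are therefore the members whose lower level in nitrogen than in potassium was called in every alternative, with an adjusted p of at most 0.0342. Leaving out 1 library moved some of these sizes by more than 1.5 times: NSR1 ran from -4.71 without nitrogen library 1 to -2.92 without potassium library 2, and was -4.29 without potassium library 1 and -3.03 without nitrogen library 2. SAS10 was -3.44 without nitrogen library 1 and -1.96 without nitrogen library 2, RRP9 was -2.80 without potassium library 1 and -1.49 without potassium library 2, and NOP4 was -2.53 without potassium library 2.

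**Figure D4:**
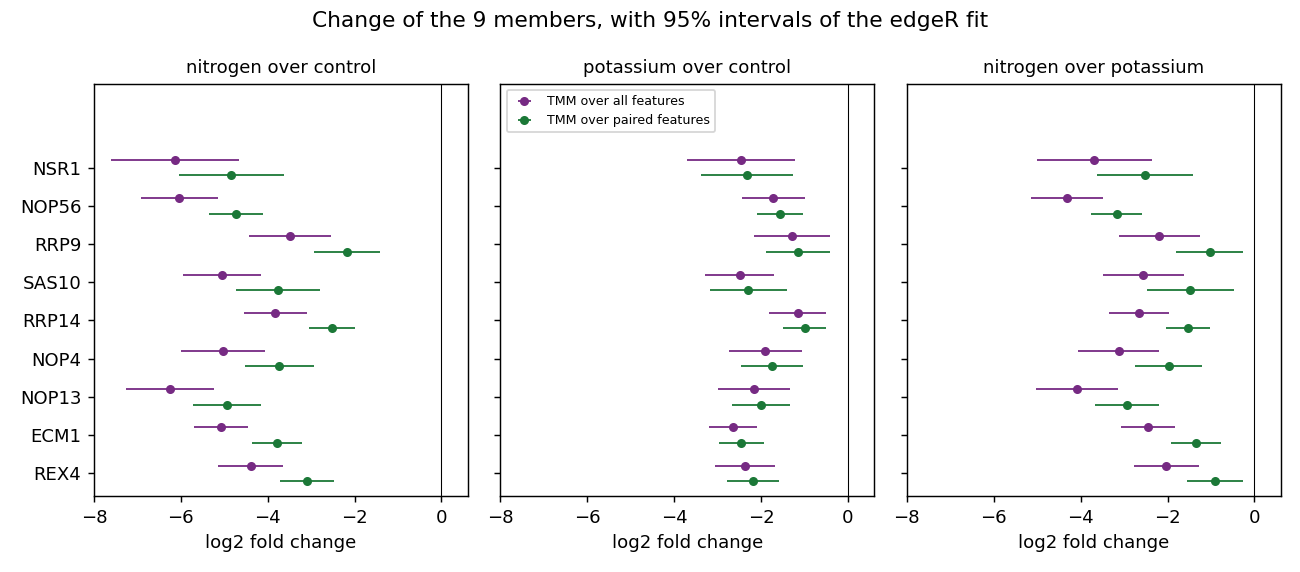
Log2 fold change of each member for nitrogen over control, potassium over control and nitrogen over potassium, with 95% intervals of the edgeR fit, under TMM over all features (purple) and over the paired features (green). Nitrogen over control ranges from -6.24 to -3.48 in purple, and the green points lie closer to 0, while in potassium over control both versions lie close together.

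The members did not fall by equal amounts, so the make-up of their reads differed between groups. This comparison within a library needs no scaling factor, and it is given as a description that was not tested. The shares add up to the whole, so the share of a member that fell less than the others rises. RRP14 made up 35.7% and 43.1% of the reads of the 9 in the nitrogen libraries, 27.1% and 23.4% in the potassium libraries, and 14.2% and 16.1% in the control libraries. Its share was thus higher in both starvations with no overlap between groups. NSR1 made up 19.8% and 8.41% in the nitrogen libraries, 16.1% and 21.1% in the potassium libraries, and 27.9% and 30.1% in the control libraries, lower in each starved library than in either control library. NOP56 made up 15.9% and 16.4% in the nitrogen libraries, 33.9% and 31.5% in the potassium libraries, and 32.0% and 26.8% in the control libraries. NOP56 thus took a smaller share in nitrogen, while its potassium and control shares overlapped.

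RRP9 made up 7.14% and 13.9% of the members' reads in the nitrogen libraries, 3.97% and 5.05% in the potassium libraries, and 2.72% and 3.44% in the control libraries, the same order as RRP14. NOP13 made up 5.96% and 4.54% in the nitrogen libraries, 8.80% and 9.41% in the potassium libraries, and 10.5% and 11.9% in the control libraries, the opposite order. The shares of NOP4 overlapped between all groups, and those of SAS10 overlapped between nitrogen and each other group. Shares of ECM1 overlapped between nitrogen and control, and those of REX4 were highest in nitrogen and lowest in potassium. As a ratio of reads between a pair of members, NSR1 over RRP14 was 0.556 and 0.195 in the nitrogen libraries, 0.594 and 0.899 in the potassium libraries, and 1.97 and 1.88 in the control libraries. ECM1 over RRP14 was 0.0932 and 0.0743 in the nitrogen libraries, 0.0805 and 0.0690 in the potassium libraries, and 0.237 and 0.177 in the control libraries, so for this pair the starvations overlapped each other and both lay below the control. NOP56 over REX4 was 5.26 and 3.51 in the nitrogen libraries, 21.3 and 20.2 in the potassium libraries, and 15.6 and 11.6 in the control libraries, lowest in nitrogen and highest in potassium.

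**Figure D5:**
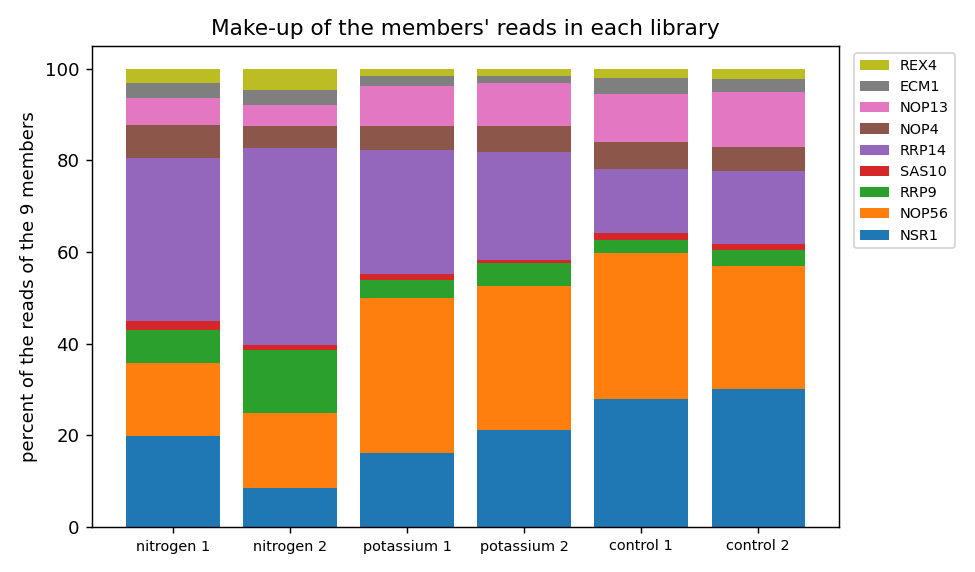
Percent of the reads of the 9 members that each member holds, in the 2 nitrogen, 2 potassium and 2 control libraries. RRP14 (purple) takes 35.7% and 43.1% in the nitrogen libraries, against 14.2% and 16.1% in the control libraries.

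Levels of different members can be set side by side only per length, for which the deposited TPM were used. These TPM do not follow plain reads per base of the feature, so each order given here is one of TPM. In the control libraries NOP56 had the highest TPM of the 9, 5998 ± 926 (SD, n = 2), followed by NSR1 with 1806 ± 45.9, RRP14 with 933 ± 55.3 and NOP13 with 780 ± 43.9. NOP4 with 420 ± 44.4 TPM and ECM1 with 405 ± 59.3 TPM did not differ beyond their spread, nor did SAS10 with 276 ± 38.7 and RRP9 with 263 ± 36.1, and REX4 stood between these pairs at 328 ± 16.7. Plain reads per base ordered these members otherwise. RRP9 had 315 and 383 reads over 513 bases in the control libraries, more per base than SAS10 with 178 and 146 over 366. REX4, with 238 and 256 over 399 bases, was not above RRP9. NOP4 had 680 and 586 over 549 bases, more per base than ECM1 with 390 and 317 over 423. In the nitrogen libraries NOP56 had 378 ± 109 TPM and RRP14 274 ± 49.3, NSR1 had 110 ± 89.3 and RRP9 96.3 ± 15.0, and neither pair could be ordered beyond its spread in TPM there, whereas in the control libraries both pairs were far apart. In plain reads per base RRP14 stood above NOP56 in both nitrogen libraries. RRP14 had 365 and 323 reads over 615 bases there, and NOP56 163 and 123 over 360. SAS10 had 34.6 ± 26.0 TPM in the nitrogen libraries and 63.1 ± 29.9 in the potassium libraries, a spread that takes in the means of NOP13, ECM1 and NOP4 in nitrogen and of REX4 and ECM1 in potassium. These levels describe the feature and not the whole transcript, since each feature covers only part of its gene.

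Other genes of the pathway were taken from the list of 213, all found in the annotation, of which 15 have a paired feature, the 9 members and 6 more. In nitrogen over control all 6 were called lower with TMM, beside 60.5% of paired features, and 5 of 6 with the paired scaling, beside 25.7%. REI1, which removes a shuttling factor from the large subunit in the cytoplasm, had 43.8 and 51.3 CPM in the nitrogen libraries, 227 and 490 in the potassium libraries, and 934 and 1362 in the control libraries, and its nitrogen change of log2 -4.58 (edgeR, SE 0.41) was within the range of the members. RRP15 and RRP17, of large subunit precursors, had log2 -3.53 and -2.94, PNO1, of the small subunit, -3.38, and RPC19, a subunit shared by RNA polymerases I and III, -3.26 (edgeR, adjusted p at most 1.1e-04 for REI1, RRP15, RRP17, PNO1 and RPC19).

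JJJ1, a co-chaperone that acts with REI1, differed: its reads numbered 502 and 546 in the nitrogen libraries, 227 and 276 in the potassium libraries, and 356 and 487 in the control libraries. JJJ1 was called lower in nitrogen over control with TMM (log2 -1.20, edgeR adjusted p = 0.0190) but had log2 0.11 with the paired scaling (adjusted p = 0.75), a move of about the size of the common shift between the scalings, so no direction is given for it. In potassium over control 5 of 6 were called lower under both scalings, beside 14.9% and 14.3% of paired features, RRP17, RRP15, RPC19, PNO1 and REI1 at log2 -1.31, -1.31, -1.37, -1.68 and -1.70, and JJJ1 had -0.82 (adjusted p = 0.17). In nitrogen over potassium 5 of 6 were called lower with TMM, beside 59.1% of paired features. With the paired scaling 3 of 6 were, beside 24.6%, RRP15, REI1 and RPC19, while JJJ1 was called higher at log2 0.77 (adjusted p = 0.0421). With TMM JJJ1 had the other sign, at log2 -0.38 (edgeR adjusted p = 0.38), so no direction is given for it here either.

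The features whose profile over the 6 libraries lay nearest to the members' median profile were sought among the other paired features, by Euclidean distance between log2 CPM centred on each feature's mean. The 5 nearest were those opposite LIA1, which completes the hypusine modification of a translation factor, at 0.64, LHP1, a La protein that binds precursor transfer RNAs, at 0.78, SYO1, an import carrier of ribosomal proteins, at 0.87, and the ribosomal protein genes RPL7B at 0.95 and RPL12B at 1.02. The members themselves lay at 0.22 (NOP4) to 1.92 (RRP9) from the same median. LIA1 had 45.1 and 36.1 CPM in the nitrogen libraries, 210 and 407 in the potassium libraries, and 958 and 1190 in the control libraries. LHP1 had 252 and 214 CPM in the nitrogen libraries, 1255 and 1935 in the potassium libraries, and 4821 and 5564 in the control libraries. RPL7B and RPL12B have near-identical copies elsewhere in the genome, so their reads are uncertain.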

How the data were processed

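The labels' protocols name the KAPA mRNA HyperPrep kit, for polyadenylated RNA. The authors' deposited files give estimated counts, which need not be whole, and TPM (length-normalised) for 7127 features per library, under the column names that salmon writes. Per the submitters' processing notes, R64, DESeq2 and STAR 2.7.3a were used. A deposited table of 6108 features holds a signal, counts divided by a size factor per library. Undoing that division, 100% of values came out whole and 100% equalled the rounded counts, within 0.001 reads.

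A feature was paired with a gene if a minimum of 100 bases and 50% of its length faced a single annotated gene that codes for a protein. Of the features, 6047 were placed by annotation and 576 by the open reading frame search, and 504 were not placed. Tried on 5667 annotated genes, the search placed 5473 once, all of them at their annotated start. This check does not cover frames missing from the annotation, such as the 9 features.

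Rounded counts were tested with edgeR 4.0.16 (R 4.3.3, quasi-likelihood, TMM, filterByExpr, 2325 features, 6 libraries, no block, 3 residual degrees of freedom), calling features at an adjusted p below 0.05. DESeq2 1.42.0 and limma 3.58.1 (pseudocount 1) were alternatives. Batch numbers in the labels pair the libraries. Over all tested features the deviations of same-numbered libraries had correlations of -0.001, 0.0007 and 0.064. Many of these features have few reads, and counting error lowers such correlations, so they do not show that a pairing is absent. For RRP9 the replicate block lowered the SE in potassium over control from 0.39 to 0.23. Libraries of a group differed beyond counting error (chi-square per degree of freedom 6.27 for nitrogen, 20.1 for potassium and 5.59 for control), so none was counted as a duplicate.

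The members, the list of assembly genes, the pairing and the alternatives were chosen with earlier results of these data known, and NOP13, ECM1, SAS10 and REX4 had been named there for the size of their changes. The naming rule took all 9 members, every list gene with a paired feature, the 5 paired features nearest to the members' median profile with a mean of at least 10 CPM (prior count 2), and DAL80 and PRM6 as checks.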

Additional observations from a re-analysis of the deposited data

How the results depend on the processing

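In nitrogen over control 9 of 9 members were called lower under all 16 alternatives, among them the replicate block that pairs libraries by batch number (9), and no member reversed in any comparison. In potassium over control 8 were called, and 5 to 9 when 1 library was left out, the lowest count being without potassium library 1. With log2 TPM the count was 0 in potassium over control and 4 in nitrogen over potassium, where 9 were called with TMM; the cause was not tested. Leaving out 1 library kept the counts at 9 in nitrogen over control and in nitrogen over potassium. Counts under the replicate block were 9 in potassium over control and 9 in nitrogen over potassium, and only the call of RRP9 changed. Over single members, 17 of 144 alternative values lost their call in potassium over control and 4 gained one, against 8 losses of 144 in nitrogen over potassium and 0 of 144 in nitrogen over control. The count test on the whole reads recovered, chosen after seeing the data, gave 9, 8 and 9 calls in nitrogen over control, potassium over control and nitrogen over potassium. Where a fit leaves 1 library in a group, that library is assumed to vary like the others. Library size alone moved the median over all features up by 1.72, 0.31 and 1.41 on the log2 scale in the same order of comparisons. Of the 5 genes most like the members, 4 were named again with library size alone. Low counts limit SAS10 most, at 20 and 7 reads in the nitrogen libraries.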

Other observations

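The PAC element was also counted in the other genes read through a paired feature, as a description with no test, in a pattern looked for after the members' promoters had been seen. Of 77 such genes that were called lower in nitrogen over control under both scalings, 26 had PAC (33.8%) and 11 had RRPE (14.3%), and of the other 249 tested 35 had PAC (14.1%) and 6 had RRPE (2.41%). In potassium over control 16 of 39 genes called lower under both scalings had PAC (41.0%) and 9 had RRPE (23.1%), against 45 (15.7%) and 8 (2.79%) of the other 287. The 2 comparisons share the control libraries, and some of the genes called lower are ribosome assembly genes of the list.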
